A study of Mus musculus with 8 samples.

Results

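The genes Cstf2, Cstf2t, Utp14a, Utp14b, Rpl10, Rpl10l, Rbmx and Rbmxl2 form 4 pairs, each made of a parent gene on the X chromosome and a retrogene on an autosome. They were chosen by their gene symbols, and all 8 were found among the 23983 genes of the expression table. RNA-seq was done on whole testis of wild type C57BL/6J mice, an inbred laboratory strain, 12, 16 and 24 days after birth (d12, d16 and d24) and at the adult stage, for which no day is given. The labels name no transgene and no treatment. Each stage is 1 library of total RNA taken from a piece of testis, without replicates, and how many animals gave RNA to a library is not stated in the sources used here. The study's 4 ChIP-seq samples (H3K27Ac) were not analysed here. Levels are in FPKM, fragments divided by transcript length and by a scaling value of each library, so that levels of genes of different length can be compared. With 1 library per stage no test between stages is possible. Every interval below is an exact 95% interval on the number of fragments, and it covers counting error only, not the spread between mice.

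A retrogene arises when the mRNA of a gene is copied back into DNA and inserted elsewhere in the genome, usually without the introns of its parent. In male meiosis the X and Y chromosomes are silenced in spermatocytes from pachytene onwards, and many retrogenes of X-linked parents that are used by every cell are transcribed in these cells from an autosome. The parents described here act in making RNA and ribosomes. Cstf2 encodes the RNA-binding subunit of the cleavage stimulation factor, which contacts pre-mRNA downstream of the poly(A) site. Utp14a encodes a protein of the small subunit processome, which matures the small ribosomal subunit. Rpl10 encodes a protein of the large ribosomal subunit, and Rbmx encodes hnRNP G, a nuclear RNA-binding protein that takes part in splicing. Cstf2t encodes the germ cell form of that subunit, Utp14b is the gene mutated in juvenile spermatogonial depletion (jsd) mice, Rpl10l encodes a ribosomal protein that male meiosis needs, and Rbmxl2 encodes the germ cell protein hnRNP G-T.

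The positions are those of the RefSeq annotation of GRCm38, the build to which the reads were mapped. Cstf2 lies on the plus strand at chrX:134059176-134086822, Utp14a on the plus strand at chrX:48256934-48282450, Rpl10 on the plus strand at chrX:74270816-74273135 and Rbmx on the minus strand at chrX:57383348-57393046. Cstf2t has a single exon at chr19:31082841-31086592, plus strand, and lies inside Prkg1, a gene of the minus strand that encodes a cGMP-dependent protein kinase. Rpl10l has a single exon at chr12:66283379-66284401, minus strand, and Rbmxl2 has a single exon at chr7:107209445-107210916, plus strand. Utp14b spans chr1:78657825-78667601 on the plus strand and shares its first exons with Acsl3, which encodes an acyl-CoA synthetase.

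The coding sequences of retrogene and parent show how far each pair can be told apart by reads of 50 bases. Below are stretches of 60 aligned coding bases of each pair, from the RefSeq transcripts and genome of GRCm38.p6, with the bases that differ in capitals. They start at the first base of the start codon, except for Utp14b, which is shown from coding base 97 to 156, and Utp14a, shown from 25 to 84.
Cstf2t: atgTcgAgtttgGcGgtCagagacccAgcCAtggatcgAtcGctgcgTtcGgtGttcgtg
Cstf2: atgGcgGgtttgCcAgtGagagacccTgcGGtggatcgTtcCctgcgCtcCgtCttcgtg
Utp14b: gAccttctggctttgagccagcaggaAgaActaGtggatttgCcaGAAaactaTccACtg
Utp14a: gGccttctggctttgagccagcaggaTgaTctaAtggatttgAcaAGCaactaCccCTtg
Rpl10l: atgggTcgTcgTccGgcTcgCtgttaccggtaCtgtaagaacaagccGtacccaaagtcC
Rpl10: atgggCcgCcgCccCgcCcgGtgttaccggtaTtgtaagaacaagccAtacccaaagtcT
Rbmxl2: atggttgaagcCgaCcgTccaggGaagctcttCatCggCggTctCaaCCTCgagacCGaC
Rbmx: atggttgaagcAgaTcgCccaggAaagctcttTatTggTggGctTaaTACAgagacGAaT

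Within these stretches 13 bases differ between Cstf2t and Cstf2, 11 between Utp14b and Utp14a, 9 between Rpl10l and Rpl10 and 16 between Rbmxl2 and Rbmx. Over the whole coding sequence, Rpl10l and Rpl10 were 84.8% identical in bases and 98.6% identical in residues, with 98 bases but only 3 of 214 residues different. Rbmxl2 and Rbmx were 68.0% identical in bases and 77.5% in residues, and Cstf2t and Cstf2 were 75.6% and 76.3% identical. Utp14b and Utp14a were 77.9% identical in bases and 68.1% in residues. These shares are over aligned positions and leave out gaps, which held 129 residues for Cstf2t and Cstf2, 47 for Utp14b and Utp14a, 12 for Rbmxl2 and Rbmx and 0 for Rpl10l and Rpl10. No stretch of 50 bases was shared between the curated transcripts of a retrogene and its parent. The genome holds 10 further copies of the Rpl10 transcript, counted at 90% identity or more and 80% of its length or more, and none of them has a row in the table. One of them, Rpl10-ps3 at chr9:50344229-50344984, has no mismatch over 756 bases. Rpl10-ps6, Gm3379, Rpl10-ps1 and Rpl10-ps5 were 99.9%, 99.7%, 99.5% and 98.9% identical over the aligned bases. Reads of Rpl10 could thus also be placed at these copies. Reads placed there would be missing from the value of Rpl10, and their number was not tested. By the same limits Rpl10l has 1 copy elsewhere, and the other 6 genes have none.

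The levels of the 8 genes ran from 1.63 FPKM for Rbmxl2 at d12 to 352.8 FPKM for Rpl10l in adult testis, and every gene was measured at every stage. The libraries held between 8865021 and 23698535 fragments on genes, counted on the shortest curated transcript of each gene. Markers of pachytene spermatocytes had a median of 1.65 FPKM at d12, then 51.8 at d16, 228.0 at d24 and 424.7 in the adult, over 6 genes. Those of round spermatids were at 0.366, 0.660, 93.2 and 181.2 FPKM, also over 6 genes. Those of Sertoli cells went from 16.2 to 8.10 FPKM, and of these 6 genes only Amh was at 0 in adult testis. Markers of Leydig cells were at 18.2 FPKM at d12 and 54.1 FPKM in adult testis. Germ cell and somatic markers thus differed between the 4 libraries, and in whole testis fewer cells of a type and less RNA per cell cannot be told apart.

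**Figure D1:**
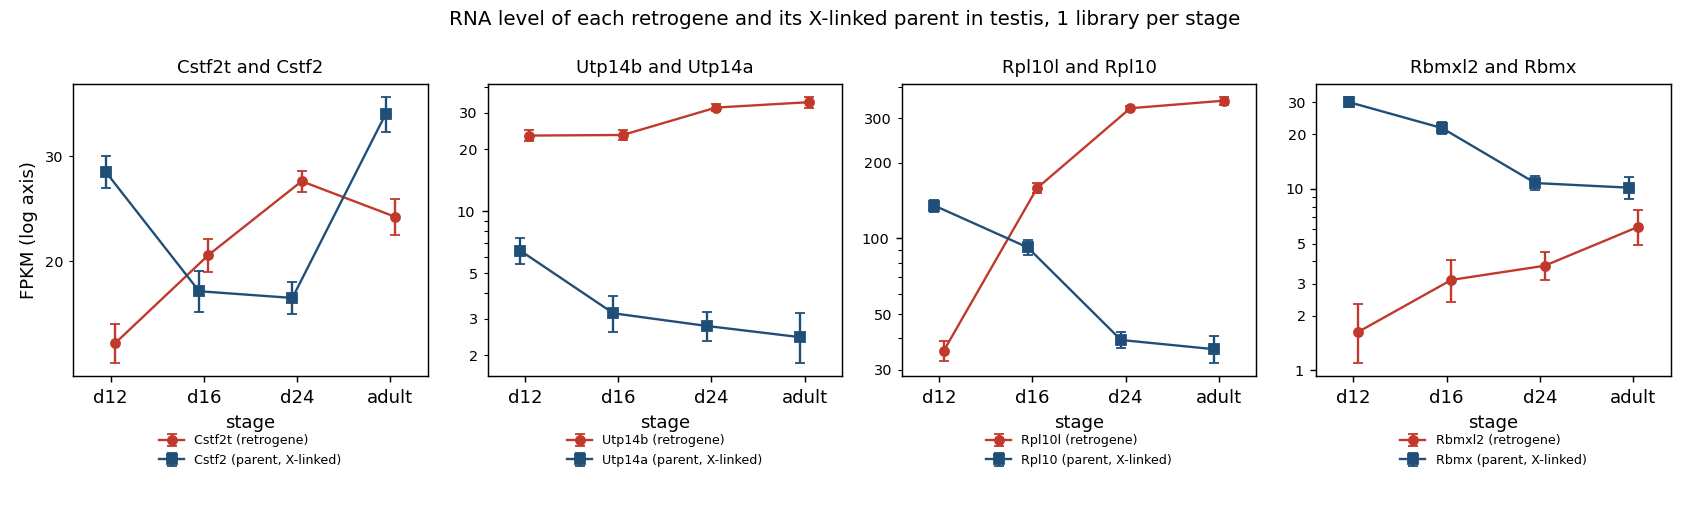
RNA level in FPKM (log axis) of each parent and its retrogene at the 4 stages, d12 to adult, with 1 library per stage and bars for the exact 95% interval of counting error. Rpl10l rose above Rpl10 at d16 and Cstf2t above Cstf2 at d16, while Cstf2 was again the higher of its pair in adult testis. Rbmxl2 stayed below Rbmx and Utp14b above Utp14a at all 4 stages.

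The levels of each retrogene and parent were set side by side to ask when the autosomal copy gives more RNA than the X-linked one. Rpl10 had 135.0 FPKM at d12 and 92.1 at d16, and 39.4 at d24 and 36.3 in the adult. Rpl10l had 35.7 FPKM at d12, then 158.4 at d16, 329.3 at d24 and 352.8 in the adult. As deposited, the pair thus crossed between d12 and d16, and nearly all of the fall of Rpl10 and of the rise of Rpl10l lay before d24. Reads of Rpl10 placed at its 10 copies elsewhere would be missing from its value. The ratios and shares that follow could then be too high, which was not tested and is not covered by the intervals. The ratio of Rpl10l to Rpl10 was 0.265 at d12 (0.238 to 0.295), then 1.72 at d16 (1.59 to 1.86), 8.35 at d24 (7.72 to 9.04) and 9.73 in the adult (8.57 to 11.1). From d12 to adult testis the ratio became 36.7 times as large (31.0 to 43.5), the most of the 4 pairs. Between d24 and adult testis it changed by a factor of only 1.17 (1.00 to 1.36). As a share of the summed FPKM of the pair, Rpl10l made up 20.9% at d12, then 63.2% at d16, 89.3% at d24 and 90.7% in the adult.

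Rbmx, which encodes hnRNP G, had 30.1 FPKM at d12, then 21.7 at d16, 10.8 at d24 and 10.2 in the adult. Rbmxl2, the least abundant of the retrogenes, had 1.63, 3.15, 3.77 and 6.17 FPKM. Rbmxl2 rested on 30 fragments at d12 and 81 in adult testis, the fewest of the 8 genes at d12, while in adult testis Utp14a had fewer, 53. The ratio of Rbmxl2 to Rbmx was 0.0540 at d12 (0.0362 to 0.0777), then 0.146 at d16 (0.109 to 0.191), 0.350 at d24 (0.285 to 0.426) and 0.607 in the adult (0.464 to 0.787). It was higher at each later stage, and the intervals of neighbouring stages did not overlap, but the retrogene stayed below its parent in every library. The change from d12 to adult testis was 11.2 times (7.09 to 18.2). Between d24 and adult testis the ratio of the Rbmx pair shifted by a factor of 1.73 (1.24 to 2.43). That of the Rpl10 pair shifted by 1.17 (1.00 to 1.36), and the 2 intervals overlap.

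Utp14a, the X-linked processome gene, had 6.44 FPKM at d12, then 3.19 at d16, 2.77 at d24 and 2.44 in the adult, and so was low at all stages. Utp14b had 23.3, 23.4, 31.8 and 33.8 FPKM. The retrogene was therefore the more abundant of the pair already at d12, before pachytene markers were high. The ratio of Utp14b to Utp14a was 3.62 at d12 (3.10 to 4.23), then 7.34 at d16 (5.96 to 9.13), 11.5 at d24 (9.73 to 13.7) and 13.8 in the adult (10.5 to 18.6). The intervals for d24 and adult testis overlap, and the change between them was 1.20 times (0.867 to 1.69), which cannot be told from no change at this depth. From d12 to the adult the ratio became 3.83 times as large (2.77 to 5.34). Of the 50-base stretches of the Utp14b transcripts, 2.55% or 10.2%, by transcript, also occur in Acsl3, which had 31.5, 29.1, 34.1 and 28.1 FPKM at the 4 stages. How much these shared first exons add to the value of Utp14b was not tested.

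Cstf2 had 28.2 FPKM at d12, then 17.8 at d16, 17.3 at d24 and 35.3 in the adult, so its adult value was the highest of the 4 as deposited but lay below that at d12, at 0.538 and 0.656 times it, with the libraries rescaled to the same FPKM sum or by upper quartile. Cstf2t had 14.6, 20.5, 27.2 and 23.7 FPKM. The ratio of Cstf2t to Cstf2 was 0.516 at d12 (0.467 to 0.570), then 1.15 at d16 (1.04 to 1.27) and 1.57 at d24 (1.46 to 1.69), and it returned to 0.673 in adult testis (0.610 to 0.741). The retrogene was thus the more abundant copy, per length, at d16 and d24 only. Cstf2 has 5 curated transcripts of 2756 to 4595 bases, the widest range of the members. Whether their mix changed with stage, which would bear on the FPKM of Cstf2, was not tested. From d24 to adult testis the ratio changed by a factor of 0.428 (0.379 to 0.485), while in the other 3 pairs this factor was 1.17 or more. Prkg1, whose gene surrounds Cstf2t on the other strand, had between 1.90 and 3.03 FPKM in the 4 libraries, well below Cstf2t. The libraries were made to keep the strand.

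**Figure D2:**
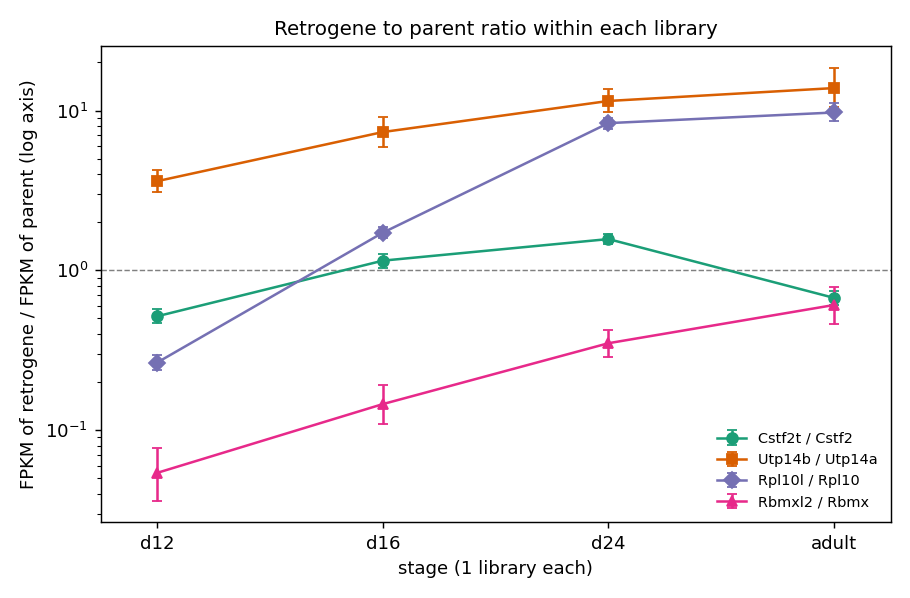
Ratio of the FPKM of each retrogene to that of its parent within each library (log axis), with bars for the exact 95% interval of counting error and a dashed line at a ratio of 1. The ratio of Rpl10l to Rpl10 went from 0.265 at d12 to 9.73 in adult testis, and Cstf2t to Cstf2 is the only pair whose adult ratio, 0.673, lies below its d24 ratio, 1.57.

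The summed level of retrogene and parent followed a different course in each pair. For Rpl10 and Rpl10l the sum was 170.7 FPKM at d12, then 250.5 at d16, 368.7 at d24 and 389.0 in the adult. For Rbmx and Rbmxl2 it was 31.8, 24.8, 14.6 and 16.3 FPKM, and the adult sum was 0.514 times that at d12. For Utp14a and Utp14b the sum lay between 26.6 and 36.3 FPKM. For Cstf2 and Cstf2t it lay between 38.3 and 59.0 FPKM, with the highest value in adult testis. Since these sums compare libraries, they depend on how the libraries were scaled to each other, which the ratios within a library do not.

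In the order of levels, Rpl10 was the highest of the 8 genes at d12 and Rpl10l at the 3 later stages. At d12 Rbmx with 30.1 FPKM (28.2 to 32.1) and Cstf2 with 28.2 FPKM (26.5 to 30.0) did not differ beyond counting error. At d16 the lowest members, Utp14a with 3.19 FPKM (2.59 to 3.89) and Rbmxl2 with 3.15 FPKM (2.39 to 4.07), likewise overlapped. In adult testis Rpl10 with 36.3 FPKM (32.0 to 41.0), Cstf2 with 35.3 FPKM (33.0 to 37.7) and Utp14b with 33.8 FPKM (31.9 to 35.9) could not be put in order. Utp14a was the lowest of the 8 at d24 and in adult testis.

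To read the changes of single genes, each was set beside all genes whose values averaged 1 FPKM or more over the 4 libraries, 13901 in number, and called up or down at 2-fold or more on the scale of log2(FPKM + 0.1). From d12 to adult testis Rpl10l rose 9.87-fold (8.94 to 10.9) and Rbmxl2 rose 3.79-fold (2.47 to 5.97), so 2 of 8 members were up, where 35.7% of all genes were up. Over the same stages Rpl10 fell to 0.269 of its d12 level (0.234 to 0.307), Rbmx to 0.337 (0.289 to 0.392) and Utp14a to 0.380 (0.275 to 0.517), so 3 of 8 members were down, where 23.1% of all genes were down. The genes that fell are 3 of the 4 X-linked parents, where 55.7% of X-linked genes were down, and both that rose are retrogenes. The remaining members lay under 2-fold, with Cstf2 at 1.25 times its d12 level, Utp14b at 1.45 and Cstf2t at 1.63. With every library rescaled to the same FPKM sum, these 3 lay below their d12 level, at 0.538, 0.625 and 0.701, and the shares of all genes became 23.2% up and 49.9% down. That scaling moved the median change of all genes by -1.20 on the log2 scale and left Rbmxl2 at 1.63 times its d12 level, under 2-fold, while the 3 parents that fell and Rpl10l kept their direction and stayed past 2-fold.

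X-linked genes as a whole were lower in adult testis than at d12, with a median log2 change of -1.24 over 612 genes, where all genes tested had a median of 0.20 and autosomal genes of 0.25. The log2 changes were -1.89 for Rpl10, -1.56 for Rbmx and -1.36 for Utp14a, each below the X-linked median. These 3 lay above 24%, 41% and 47% of the X-linked genes. The interval of the fold of Utp14a, 0.275 to 0.517, includes the X-linked median fold of 0.424. Cstf2, at 0.32, was above the X-linked median, and above 73.4% of the X-linked genes. For the 4 retrogenes the log2 changes were 3.30 for Rpl10l, 1.86 for Rbmxl2, 0.70 for Cstf2t and 0.54 for Utp14b, all above the autosomal median as deposited. In the same order they lay above 82.9%, 74.1%, 59.5% and 56.5% of all genes tested.

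Between d12 and d16, when pachytene markers appeared, Rpl10l was the only member called, at 4.43 times (4.00 to 4.92), where 12.6% of all genes were up and 3.67% down (11.7% and 5.78% with the same FPKM sum). Utp14a, at 0.496 of its d12 level (0.385 to 0.636), lay just outside the limit for a fall, with a log2 change of -0.99 on the scale with the pseudocount. Rescaled to the same FPKM sum, by upper quartile or by the median of ratios, it lay at 0.457, 0.448 and 0.480, each past 2-fold as a ratio. The other parents were at 0.631 for Cstf2, 0.682 for Rpl10 and 0.719 for Rbmx. All 4 parents thus had lower values at d16 than at d12, also when each library was rescaled, and Rbmxl2 was at 1.94 times its d12 level (1.23 to 3.12). X-linked genes had a median log2 change of -0.44 over this step, and all genes of 0.00. The upper quartile of the X-linked genes was -0.11, so most of them were also lower at d16 than at d12.

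Between d16 and d24 Rpl10l was up at 2.08 times (1.98 to 2.18), where 27.5% of all genes were up. Rpl10, at 0.428 (0.388 to 0.473), and Rbmx, at 0.498 (0.444 to 0.558), were down, where 8.45% of all genes and 30.2% of X-linked genes were. Rbmx lay just inside the limit. With the libraries rescaled to the same FPKM sum, 19.4% of all genes were up and 30.2% down, and Rpl10l lay at 1.35 times its d16 level, under 2-fold. Cstf2 and Utp14a, with 0.974 and 0.868 of their d16 level, had intervals that included 1 as deposited, but lay at 0.635 and 0.566 with the same FPKM sum and at 0.675 and 0.601 by upper quartile. Over this step the median of X-linked genes was -0.69 and that of all genes 0.13.

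Between d24 and adult testis Cstf2 was the only member past 2-fold, at 2.04 times (1.86 to 2.23), where 11.4% of all genes were up and 2.2% down (6.63% and 10.0% with the same FPKM sum). It lay above 84.3% of the X-linked genes, whose median was -0.03. With the libraries rescaled to the same FPKM sum it was at 1.46 times its d24 level and by upper quartile at 1.70 times, under 2-fold in both. The remaining 7 members lay between 0.872 for Cstf2t and 1.64 for Rbmxl2, the latter with an interval of 1.22 to 2.18. The medians of the elongating spermatid markers were 489.0 FPKM at d24 and 4072 FPKM in adult testis. Their part in the adult level of Cstf2 was not tested.

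**Figure D3:**
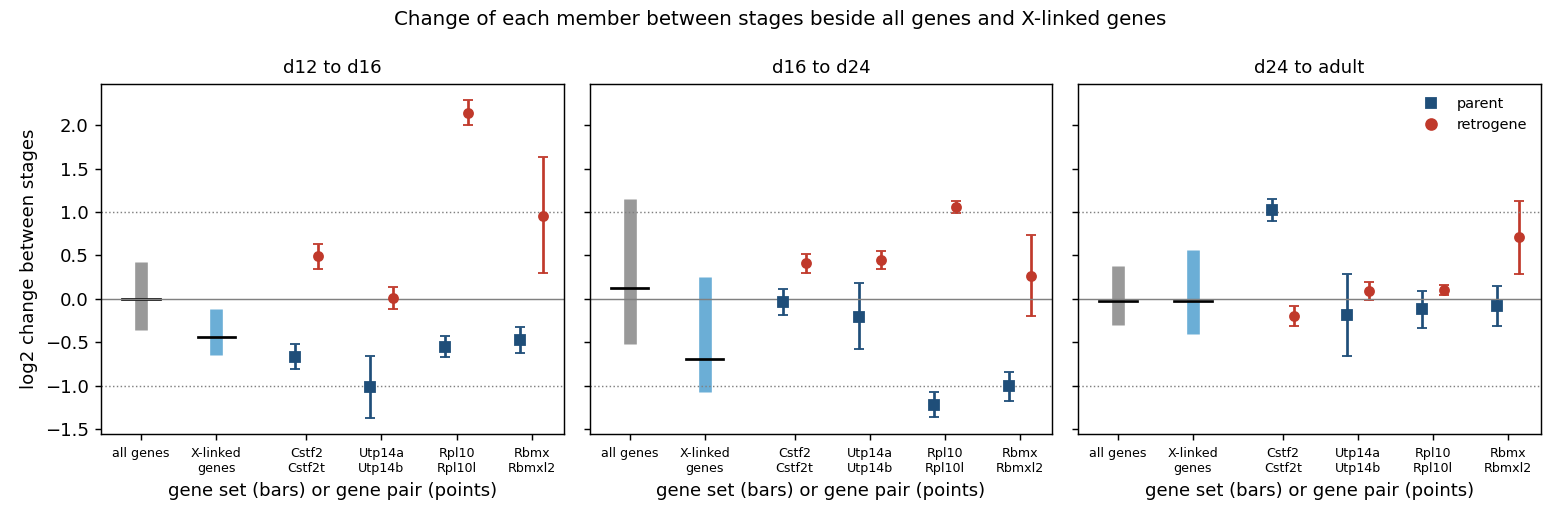
Log2 change of each parent (squares) and retrogene (circles) over the 3 steps between stages, with 95% intervals of counting error, beside bars from the lower to the upper quartile and black lines at the median of all 13901 genes and of the 612 X-linked genes. Parents lie below 0 from d12 to d16, and Cstf2 stands apart from the other parents from d24 to adult testis, at a fold of 2.04.

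The sequence before the start of Cstf2 was looked at because its adult level was unlike that of the other 3 parents, a choice made after the values were seen. The motifs searched were TGACGT (the core of the cAMP response element, bound by CREB and CREM proteins), the TATA box TATAAA, the CCAAT box and the MYB motif AACTGNC. Both strands were searched from 250 bases before to 50 bases after the start that the RefSeq promoter table uses for each gene, and no pair of these motifs contains the other. That start is the gene start given above for 6 members and lies a few bases inside the gene for Rbmx, while the window of Utp14b, chr1:78658190-78658489, lies at the start of the longer of its 2 curated transcripts, inside the gene. The element TGACGT was found in Cstf2 and in no other member, and occurs in 7.51% of all promoters of the RefSeq table. The TATA box occurs in 13.6% of them, the CCAAT box in 37.4% and the MYB motif in 12.8%. Among the members, the CCAAT box was found in Cstf2t, Utp14a, Rpl10, Rbmx and Rbmxl2, and the MYB motif in Utp14a. The letters TATAAA were found in Rbmx only, 26 bases after the start and so within the gene, not before it. The 150 bases before the start of Cstf2 (chrX:134059026-134059175, plus strand) and of Cstf2t (chr19:31082691-31082840, plus strand) are given 5′ to 3′ from RefSeq on GRCm38.p6, with matches to the 4 motifs in capitals.
Cstf2: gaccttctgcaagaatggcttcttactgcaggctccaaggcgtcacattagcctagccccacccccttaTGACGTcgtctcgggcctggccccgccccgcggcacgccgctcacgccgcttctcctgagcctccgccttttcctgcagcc
Cstf2t: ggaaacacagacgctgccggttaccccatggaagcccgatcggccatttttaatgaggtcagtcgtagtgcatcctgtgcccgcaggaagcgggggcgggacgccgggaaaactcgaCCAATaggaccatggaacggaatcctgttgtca

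A match describes the letters of the window and is neither a bound site nor a cause. The same windows held 24 CpG dinucleotides in Cstf2 and 26 in Cstf2t, 21 in Utp14a and 40 in Utp14b, 17 in Rpl10 and 13 in Rpl10l, and 11 in Rbmx and 29 in Rbmxl2, where the median promoter of the RefSeq table held 7. All 8 members therefore had more CpG dinucleotides than the median promoter, the retrogenes included.

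The other genes of each complex show whether a pair moved with its partners. Of 17 cleavage and polyadenylation genes, all of which passed the filter, 6 rose and none fell from d12 to adult testis, where 35.7% of all genes were up and 23.1% down, so the count that rose is near the background. Their median log2 change was 0.01, where that of all genes was 0.20. With the same FPKM sum 1 of them rose and 9 fell, where 23.2% of all genes were up and 49.9% down. Papolb, the poly(A) polymerase of germ cells and itself a retrogene, rose from 2.12 to 308.3 FPKM, and Pabpn1, the nuclear poly(A)-binding protein, rose from 77.3 to 328.2 FPKM. Cstf1, another subunit of the same factor as Cstf2, rose from 13.6 to 52.9 FPKM. Cstf3, which binds both other subunits, had 27.1 FPKM at d12 and 24.6 in adult testis, under 2-fold. The lowest folds of the list were those of Cpsf6 and Cpsf7, subunits of cleavage factor I, with 23.6 and 18.5 FPKM at d12 and 12.9 and 10.6 in adult testis. The sum of Cstf2 and Cstf2t was 1.81 times the list median at d12, then 1.67 at d16, 1.21 at d24 and 1.79 in the adult.

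Of 28 genes of the small subunit processome, 3 rose, 8 fell and 17 lay under 2-fold from d12 to the adult, with a median log2 change of -0.53 (0 up and 21 down with the same FPKM sum). The share of all genes down was 23.1%, or 49.9% with the same FPKM sum, and the share up was 35.7% or 23.2%. Nop56, a protein of box C/D snoRNPs, fell from 63.9 to 18.0 FPKM, and Utp6 fell from 31.4 to 9.07 FPKM. Bms1, a GTPase of the processome, rose from 72.3 to 154.4 FPKM and Nop14 from 62.2 to 138.8 FPKM. Against this list Utp14a was low throughout, at 0.221 of the list median at d12 and 0.144 in adult testis. Utp14b was at 0.798 of the list median at d12 and 1.99 times it in adult testis.

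Of 45 genes of the large ribosomal subunit, 4 rose, 7 fell and 34 lay under 2-fold, with a median log2 change of -0.28 (0 up and 33 down with the same FPKM sum), beside the same shares of all genes, 35.7% up and 23.1% down, or 23.2% and 49.9%. The genes with the largest fall were both X-linked, Rpl36a from 765.7 to 122.9 FPKM and Rpl39 from 465.9 to 106.2 FPKM. Rpl37 rose from 353.0 to 942.9 FPKM and Rpl26 from 26.2 to 59.7 FPKM. The sum of Rpl10 and Rpl10l was 0.510 times the list median at d12, then 0.871 at d16, 1.43 at d24 and 1.42 in the adult. Reads of Rpl10 placed at its copies elsewhere would be missing from this sum. Among paralogs of other ribosomal proteins, Rpl39l, the autosomal relative of Rpl39, rose from 11.4 to 108.9 FPKM, 9.55-fold, close to the 9.87-fold rise of Rpl10l. Rpl36al, the relative of Rpl36a, had 108.7 FPKM at d12 and 152.1 in adult testis, under 2-fold. Rps4l had 27.6 and 42.5 FPKM, Rpl22l1 7.37 and 11.5, Rpl7l1 36.2 and 23.8, and Rps27l 19.1 and 13.8 FPKM. Rpl3l, the muscle form of Rpl3, did not reach the filter and was at 1.01 FPKM at d12 and 0.216 in adult testis.

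Of 15 genes of the RBMX family and its splicing partners, 1 rose, 3 fell and 11 lay under 2-fold, with a median log2 change of -0.13 (1 up and 12 down with the same FPKM sum). Of all genes 35.7% were up, or 23.2% with the same FPKM sum. The count that fell is near the 23.1% of all genes down, and 49.9% of all genes were down with the same FPKM sum. Khdrbs3, which encodes the STAR protein T-STAR, rose from 17.0 to 97.2 FPKM. Hnrnpa1 fell from 86.9 to 13.2 FPKM, the Y-linked Rbmy from 115.0 to 23.7 FPKM and the X-linked Rbmx2 from 26.0 to 5.73 FPKM. Rbmxl1, an autosomal retrogene of Rbmx that is not specific to the testis, had 42.0 FPKM at d12, then 37.7 at d16, 31.3 at d24 and 22.0 in the adult. It was thus above Rbmx and above Rbmxl2 at all 4 stages. Rbmx shares 0.75% of its 50-base stretches with Rbmxl1. Tra2b, a splicing activator that binds hnRNP G, had 100.6 FPKM at d12 and 163.5 in adult testis. The sum of Rbmx and Rbmxl2 was 0.470 of the list median at d12 and 0.279 in adult testis.

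**Figure D4:**
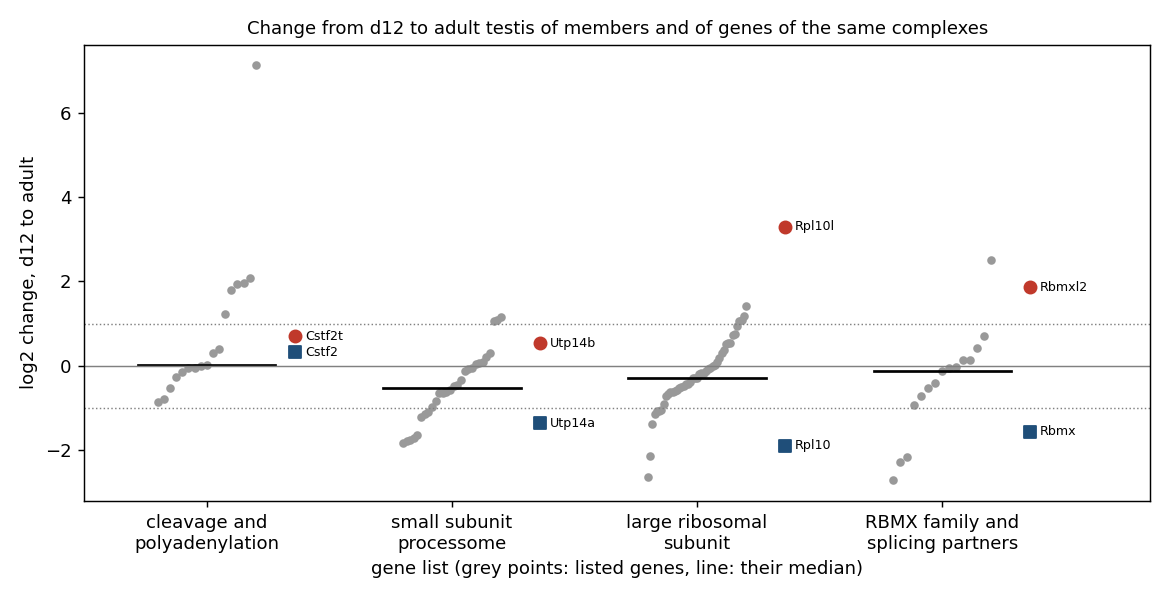
Log2 change from d12 to adult testis of each gene of the 4 lists (grey points, with a line at the list median) and of the parents (squares) and retrogenes (circles). Rpl10l, at 3.30, lies above all listed genes of the large subunit, and the list medians are 0.01, -0.53, -0.28 and -0.13 from left to right.

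The genes whose profile over the 4 libraries was most like that of a member were found by Euclidean distance between log2(FPKM + 0.1) values, each gene centred on its own mean, among 13900 other genes. With 4 points these are descriptions only. Nearest to Cstf2 were Carhsp1, the X-linked 1700013H16Rik and Gm13826, and Carhsp1 had 22.1, 13.8, 14.6 and 29.4 FPKM at the 4 stages. Nearest to Cstf2t were Bub1b, a spindle checkpoint kinase, Dars, an aminoacyl-tRNA synthetase, and Thoc1, a subunit of the mRNA export complex THO. Utp14a was most like Layn, Lppr3 and the Sertoli and Leydig cell factor Gata4, which had 9.32 FPKM at d12 and 3.54 in adult testis. Utp14b was most like Sdad1, Rer1 and D8Ertd738e. Rpl10 was nearest to Atp8a1, Morf4l2 and Trove2, and Rbmx to Fam3a, Rab9 and Dcn, where Morf4l2, Fam3a and Rab9 are X-linked. Rpl10l was nearest to Timm8a2, Ccdc155 and Ccdc163, and Rbmxl2 to Otud1, Tmem258 and Gm14057. No member was among the 3 nearest genes of another.

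The ratios of 5 other retrogenes to their X-linked parents were read from the same libraries. Pgk2, the germ cell phosphoglycerate kinase, had 0.0216 times the level of Pgk1 at d12 and 40.6 times in adult testis. For Pdha2 and Pdha1, which encode a pyruvate dehydrogenase subunit, the ratio was 0.359 and 26.3, and for the centrin genes Cetn1 and Cetn2 it was 0.116 and 159.7. Ubl4b was listed at 0 at d12 and had 66.0 times the level of Ubl4a in adult testis, and G6pd2 was listed at 0 at d12 and d16 and had 3.04 times the level of G6pdx in adult testis. The adult ratios of Rpl10l and Utp14b, 9.73 and 13.8, lay within the range of these pairs, and those of Cstf2t and Rbmxl2, 0.673 and 0.607, lay below all 5. At d12 the ratio of Utp14b to its parent, 3.62, was above that of each of the other pairs. Gapdh, an autosomal gene often used as a reference, had 68.9, 42.6, 19.1 and 20.04 FPKM and was not used for scaling.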

How the data were processed

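RNA-seq libraries, 1 per stage, were strand-specific total RNA libraries made with ScriptSeq v2 and read in pairs of 50 bases. The deposited values are FPKM, for 23983 genes. The authors mapped the reads to GRCm38 with TopHat2 2.1.0 and Bowtie 1.1.2, set to keep at most 1 alignment per read. They computed the values with Cuffdiff of Cufflinks 2.2.1, with its options for multiple mapping and bias correction. With 1 alignment per read, the first option had no second placement to share a read with. The scaling between libraries is not given in the sources used here. The divisor worked back from the values was 21970140 fragments at d24 and 8917182 in adult testis. Both lie below the 23698535 and 12057749 fragments counted on genes, so the divisor is not the plain number of fragments of a library. At d12 and d16 the divisor, 12523456 and 12500687, lay above the count on genes. FPKM sums differed, from 283580 at d12 and 307964 at d16 to 472726 at d24 and 659202 in adult testis.

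Fragment numbers were worked back from the FPKM and the length of the shortest curated RefSeq transcript, which gives the widest interval. In 15404 genes, between 91.13% and 92.16% of values of up to 20 fragments lay within 0.05 of a whole number. Since the values were computed with the multiple mapping and bias options, fragment numbers are approximate. Levels have exact Poisson intervals, folds and ratios Clopper-Pearson intervals, and changes of a ratio the exact conditional interval of the odds ratio. Reads carry no molecular identifiers. The limit for a count of 0 is 3 fragments. Changes used a pseudocount of 0.1 FPKM, a mean of at least 1 FPKM and a limit of 2-fold. The fold changes quoted for members are ratios of the deposited values.

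Of the symbols, 22550 were found in the annotation directly, 1268 by synonym and 165 were not found. Coding sequences were aligned with Biopython 1.88 and copies sought with blastn 2.17.0. Other tools were python 3.11.15, numpy 2.4.6, pandas 2.3.3, scipy 1.17.1 and matplotlib 3.10.9. In a test on simulated data, the size of 1 fragment in FPKM came out within 1% in 4 of 4 libraries. Of 200 genes made to rise 4-fold among 6330, with counting noise only, 199 were called. That size is well past the limit of 2-fold, so the test does not bear on changes near the limit. The members, lists and alternatives were chosen with earlier results of these data known. The genes named are the members, the genes that overlap a retrogene, partners and paralogs fixed by symbol, the 2 largest rises and falls of each list, the other retrogene pairs, Gapdh and the 3 nearest profiles.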

Additional observations from a re-analysis of the deposited data

How the results depend on the processing

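With 1 library per stage no library could be left out, and the spread between mice is not known. Of 176 recomputed values over 64 results, 92 stayed within their interval or within 1.5 times the count and 84 moved. A change of direction was looked for only among member changes called past 2-fold, where 0 were found. Members under 2-fold that crossed their starting level, such as Cstf2 from d12 to adult testis, are not counted there. Scaling by the median of ratios moved the median change of all genes from d12 to adult testis by only -0.061 on the log2 scale. The shift was -1.20 with the same FPKM sum and -0.916 by upper quartile. The deposited values were thus already close to the median of ratios. That it kept all 8 member changes from d12 to adult testis within their intervals is therefore no independent check. Rescaled to the same FPKM sum, these folds were 0.538 for Cstf2, 0.701 for Cstf2t, 0.163 for Utp14a, 0.625 for Utp14b, 0.116 for Rpl10, 4.24 for Rpl10l, 0.145 for Rbmx and 1.63 for Rbmxl2, and by upper quartile 0.656, 0.855, 0.199, 0.762, 0.141, 5.18, 0.177 and 1.99. Both scalings put Cstf2, Cstf2t and Utp14b below their d12 level. From fragments without division by length, the ratios at d12 and in adult testis were 0.702 and 0.916 for Cstf2t to Cstf2, 5.49 and 21.0 for Utp14b to Utp14a, 0.341 and 12.5 for Rpl10l to Rpl10, and 0.0335 and 0.377 for Rbmxl2 to Rbmx, which follows from the lengths. From d12 to adult testis and with the same FPKM sum, 1 cleavage and polyadenylation gene was up and 9 down. Processome genes were 0 up and 21 down, large subunit genes 0 and 33, and the RBMX list 1 and 12. Of all genes, 510 were down from d12 to d16, against 131 with a pseudocount of 1 FPKM, 1411 without the filter and 803 with the same sum. From d16 to d24 1174 were down, against 568, 1931 and 4203. From d24 to adult testis 306 were down, against 58, 926 and 1390, and 1578 up, against 2672 without the filter and 921 with the same sum. From d12 to adult testis 4965 were up and 3216 down, against 3220 and 6934 with the same sum. The alternative with near copies in the denominator gave no value, since no near copy of a pair is in the table.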
